A study of Mus musculus with 10 samples.

Results

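The transcripts followed here set the pace of the G1 phase: the D-type cyclins Ccnd1, Ccnd2 and Ccnd3, the E-type cyclins Ccne1 and Ccne2, the kinase inhibitors Cdkn1a, Cdkn1b and Cdkn2c, and the transcription factors E2f1 and Myc. They were chosen by name, as G1 cyclins, inhibitors of cyclin-dependent kinases and the factors E2f1 and Myc, and all 10 of them were found among the 22165 gene identifiers of the count table and passed the filter on low counts.

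The RNA came from macrophages of the mouse peritoneal cavity, sorted on CD64, ICAM-2 and CD115, which are surface proteins of macrophages and monocytes. All mice were C57BL/6. The labels give the wild-type mice as WT in the genotype field and growth protocol and as fl/fl in the treatment protocol, which is a floxed allele without Cre, and the knockout mice as LysM-Cre together with the fl/fl allele. LysM-Cre is driven by the Lyz2 locus and acts in myeloid cells, and by either description every genotype comparison is also one of mice with Cre against mice without it. Whether the controls carried the floxed allele cannot be settled from the labels. Mice of each genotype received saline (basal) or IL-4 bound to an antibody against IL-4, written IL-4 here, by intraperitoneal injection, and the cells were washed out with 5 ml of PBS after 36 hours. There were 2 wild-type basal, 2 knockout basal, 3 wild-type IL-4 and 3 knockout IL-4 libraries. Nothing in the labels ties a replicate to an animal of its own, so the p-values measure only the spread between these samples, which may be technical. Ages of the animals were not given in the sources used here.

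A cell leaves quiescence when D-type cyclins bind CDK4 or CDK6 and begin to phosphorylate the retinoblastoma protein, which holds E2F transcription factors in check. Freed E2F factors raise the E-type cyclins, which activate CDK2 and carry the cell into DNA synthesis. The INK4 inhibitors, among them the product of Cdkn2c, bind CDK4 and CDK6, while the Cip/Kip inhibitors p21 (Cdkn1a) and p27 (Cdkn1b) act mainly on the CDK2 complexes. MYC raises the synthesis of ribosomes, nucleotides and polyamines. Tissue macrophages maintain themselves by division, and IL-4 is known to make the resident macrophages of body cavities divide.

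Levels are given in CPM, read counts relative to the size of the library after scaling with edgeR's TMM factors, and differences as log2 fold changes ± their standard error from edgeR's quasi-likelihood test, with p-values adjusted by Benjamini-Hochberg over the 11614 genes tested. A gene passed at an adjusted p under 0.05. Library totals ran from 8762403 to 15024073 counts. The transcripts of the sorting proteins were present in every library, but not at like levels. Fcgr1 (CD64) stood at 21.7 to 37.5 CPM in basal libraries and at 7.99 to 13.6 CPM after IL-4, without overlap. Icam2 stood at 833 to 1154 CPM in wild-type basal and 525 to 714 CPM in knockout basal libraries. After IL-4 it stood at 298 to 588 CPM in wild type and 275 to 488 CPM in knockout. Csf1r (CD115), at 248 to 368 CPM, overlapped between basal and IL-4 libraries. Markers of B cells summed to 1225 and 1539 CPM in the knockout basal libraries, against 136 to 232 CPM in wild-type basal, 387 to 444 CPM in wild-type IL-4 and 354 to 471 CPM in knockout IL-4 libraries. In bulk RNA, fewer cells of a type and less RNA per cell cannot be told apart.

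Ccnd1 (chr7:144929931-144939925 on the minus strand of mm10) encodes cyclin D1 and was the most abundant of the 10 transcripts per kilobase of exon in every group. In wild type it stood at 1223 and 856 CPM in basal libraries and at 1033, 986 and 917 CPM after IL-4. In knockout it stood at 309 and 677 CPM in basal libraries and at 417, 422 and 345 CPM after IL-4. All 5 knockout libraries lay below all 5 wild-type libraries, and the knockout basal libraries differed 2.19-fold from each other.

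After IL-4 the knockout level of Ccnd1 was 2.48-fold lower, a log2 difference of -1.31 ± 0.25 with an adjusted p of 0.0191 by edgeR's quasi-likelihood test. It was the only one of the 10 genes that passed in this comparison, in which 0.474% of all genes tested were lower and 0.353% higher in knockout. The direction held in every fit that left out 1 library, but 4 of those fits lost the call: the adjusted p was 0.0879 without knockout IL-4 replicate 3, and 0.115, 0.0662 and 0.0684 when wild-type IL-4 replicates 1, 2 and 3 were left out in turn. Under basal conditions the log2 difference was -1.08 ± 0.30 with an adjusted p of 0.0611, which did not pass. That value turned on which knockout library was kept: the log2 difference was -1.75 (3.37-fold, adjusted p of 0.00742) without knockout basal replicate 2 and -0.62 (1.53-fold, adjusted p of 0.408) without knockout basal replicate 1. On all libraries DESeq2 gave an adjusted p of 0.0205, and edgeR without the filter on low counts gave 0.00126. IL-4 itself gave log2 differences of -0.09 ± 0.27 in wild type and -0.32 ± 0.27 in knockout, with adjusted p-values of 0.899 and 0.524.

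Ccnd2 (chr6:127125162-127152193, minus strand), which encodes cyclin D2, the D-type cyclin best known from B lymphocytes and from the ovary, showed a different order of groups. Its level was 55.6 and 74.0 CPM in wild-type basal libraries and 254 and 857 CPM in knockout basal libraries. After IL-4 it was 91.1, 89.3 and 106 CPM in wild type and 143, 116 and 106 CPM in knockout. The knockout basal libraries were the highest of all 10 and stood 3.37-fold apart from each other, while the genotypes overlapped after IL-4.

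Under basal conditions Ccnd2 was 8.58-fold higher in knockout, a log2 difference of 3.10 ± 0.44 with an adjusted p of 9.78e-04. The fold was 3.92 without knockout basal replicate 2 (adjusted p of 0.00302) and 13.2 without knockout basal replicate 1 (adjusted p of 3.03e-05). With Ccne2, described below, 2 of the 10 genes passed here, 1 in each direction, where 2.61% of all genes tested were higher and 1.53% lower in knockout. In knockout, Ccnd2 fell by 2.19 on the log2 scale with IL-4 (standard error 0.37, 4.57-fold, adjusted p of 0.00245). Without knockout basal replicate 2 this log2 difference was -1.06, or 2.09-fold, with an adjusted p of 0.0621. In wild type the IL-4 libraries lay above the basal ones, with a log2 difference of 0.56 ± 0.37 that did not pass (adjusted p of 0.430).

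The response of Ccnd2 to IL-4 differed between genotypes. The interaction, which subtracts the wild-type effect of IL-4 from the knockout one, was -2.75 ± 0.53 on the log2 scale with an adjusted p of 0.0120. Leaving out knockout basal replicate 2 gave -1.62 (adjusted p of 0.0377), and leaving out the other knockout basal library gave -3.38. Without wild-type basal replicate 1 it was -2.58 and did not pass (adjusted p of 0.0694). Ccnd2 and Ccne2 were the 2 genes of the 10 with an interaction that passed, against 1.02% of all genes tested with a positive and 1.78% with a negative one.

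Some markers of other cells moved with these Ccnd2 values and some did not. Of the 11 B cell markers tested, 10 were higher in knockout than in wild type under basal conditions. With IL-4, 10 were lower in knockout and 4 were higher in wild type, and 10 had a negative interaction. None of the B cell markers was at 0 in all libraries. Ms4a1, the most abundant of them, stood at 414 to 477 CPM in knockout basal and 57.7 to 126 CPM in wild-type basal libraries, and Ebf1 at 192 to 242 CPM and 16.9 to 21.1 CPM. Between the knockout basal libraries, Ccnd2 differed 3.37-fold and the summed B cell markers 1.26-fold, both higher in replicate 2. Summed mast cell and basophil markers stood at 159 to 263 CPM in knockout basal against 27.1 to 29.6 CPM in wild-type basal libraries, with 4 of 8 tested markers higher and Mcpt8 at 0 in all 4. T and NK cell markers summed to 98.9 to 104 CPM against 22.2 to 40.0 CPM, with 1 of 9 tested markers higher. Most of that sum was Cd2, at 82.4 to 84.5 CPM against 13.6 to 27.0 CPM. Cd3g, the next in mean level, did not follow, at 3.94 to 4.87 CPM against 4.82 to 7.11 CPM. Markers of small macrophages, monocytes and dendritic cells summed to 590 to 739 CPM against 180 to 357 CPM, with 3 of 9 higher. Markers of large peritoneal macrophages, the main resident population, summed to 6890 to 7268 CPM against 7797 to 8820 CPM. There 0 of 10 passed as higher, at a median log2 difference of 0.12. Neutrophil markers summed to 179 to 260 CPM against 254 to 358 CPM, with 0 of 6 passing as higher and Ltf, Ngp and Camp at 0. Csf3r held most of that sum, at 145 to 203 CPM against 241 to 320 CPM. S100a9 stood at 11.7 to 26.9 CPM against 5.00 to 19.7 CPM, and the median log2 difference of the neutrophil list was 0.79. After IL-4 in knockout, mast cell and basophil markers summed to 2.08 to 2.92 CPM and T and NK cell markers to 22.8 to 27.5 CPM. Both sums were below knockout basal as Ccnd2 was, and Cd2, at 17.8 to 24.0 CPM, again held most of the T and NK sum. Markers of small macrophages, monocytes and dendritic cells went the other way, to 1030 to 1122 CPM in knockout IL-4 and 1223 to 1336 CPM in wild-type IL-4 libraries. Eosinophil markers summed to 35.7 to 46.0 CPM in knockout basal against 6.51 to 8.03 CPM in wild-type basal libraries. Of these, 1 of 2 tested was higher, and Epx, Prg2 and Prg3 were at 0 throughout. Erythroid markers summed to 14.0 to 29.8 CPM against 0 to 6.52 CPM, with 0 of 4 higher. Those of mesothelial cells and fibroblasts summed to 1.08 to 2.68 CPM against 2.36 to 2.65 CPM, with 0 of 2 higher. The part of these other cells in the Ccnd2 result was not tested.

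Ccnd3 (chr17:47505051-47599691, plus strand) encodes cyclin D3, which serves mainly in lymphoid and other blood cells. Its level stayed in a narrow range, from 41.7 CPM in a knockout IL-4 library to 72.9 CPM in a wild-type basal library. The wild-type and knockout libraries overlapped in each condition, and no comparison passed. The difference furthest from 0 was the IL-4 effect in wild type, a log2 difference of -0.29 ± 0.24 with an adjusted p of 0.534.

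The balance among the D-type cyclins was read per length of exonic sequence (union of the exons in GENCODE M21, 4709 bases for Ccnd1, 9409 for Ccnd2 and 8775 for Ccnd3), which presumes reads spread evenly along the transcript. On this scale Ccnd1 made up 92.8% to 94.8% of the summed D-type CPM per kilobase in wild-type basal and 91.8% to 93.5% in wild-type IL-4 libraries. It made up 59.5% to 65.8% in knockout basal and 80.6% to 82.8% in knockout IL-4 libraries. The share of Ccnd2 was 2.16% to 4.02% in wild-type basal, 27.1% to 37.7% in knockout basal, 4.11% to 5.32% in wild-type IL-4 and 11.4% to 13.8% in knockout IL-4 libraries. Thus the share of Ccnd2 was higher in every knockout library than in any wild-type library. After IL-4, Ccnd2 itself stood at 11.2 to 15.2 CPM per kilobase in knockout and 9.49 to 11.3 in wild type, which overlap, and Ccnd1 at 73.2 to 89.6 and 195 to 219, which do not.

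**Figure D1:**
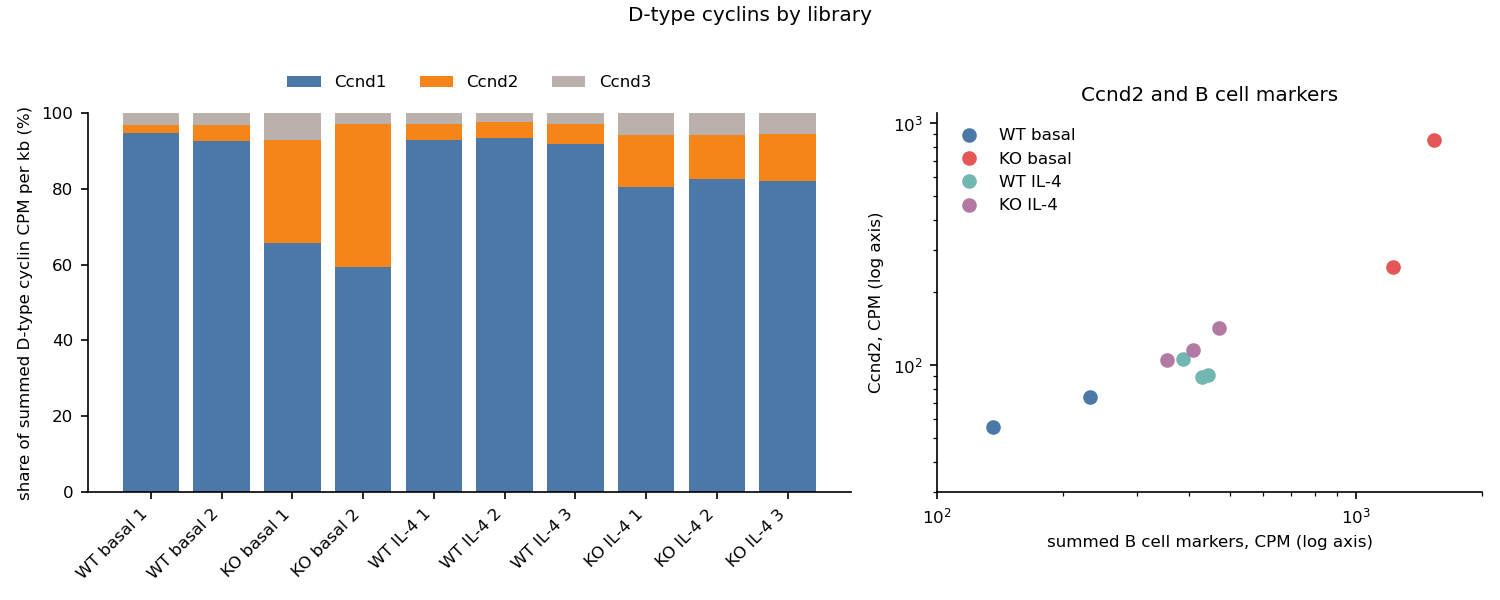
Left, share of each D-type cyclin in their summed CPM per kilobase (percent) in each of 10 libraries; right, Ccnd2 level against the summed level of 11 B cell markers (both in CPM on log axes), 1 point per library coloured by group. The knockout basal libraries, at 254 and 857 CPM of Ccnd2, are also the highest in B cell markers, at 1225 and 1539 CPM.

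Ccne2 (chr4:11191351-11204779, plus strand), which encodes cyclin E2, a partner of CDK2 and a known E2F target, was low in 1 group only. It stood at 15.9 and 14.3 CPM in wild-type basal, 4.11 and 3.49 CPM in knockout basal, 8.88, 18.9 and 16.7 CPM in wild-type IL-4, and 15.7, 20.0 and 24.1 CPM in knockout IL-4 libraries. The knockout basal libraries lay below all others, and the remaining 3 groups overlapped.

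Ccne2 was 3.97-fold lower in knockout than in wild type under basal conditions, a log2 difference of -1.99 ± 0.39 with an adjusted p of 0.00851. Leaving out 1 knockout basal library gave an adjusted p of 0.0566 (replicate 1 left out) or 0.0888 (replicate 2 left out). In knockout it rose 5.25-fold with IL-4, a log2 difference of 2.39 ± 0.37 with an adjusted p of 9.99e-04, and this held in every fit that left out 1 library. In wild type the IL-4 effect was -0.02 ± 0.33 with an adjusted p of 0.981. The interaction was 2.42 ± 0.49 with an adjusted p of 0.0123, or 0.0709 without knockout basal replicate 2, and the genotypes did not differ past the threshold after IL-4 (0.43 ± 0.29, adjusted p of 0.532).

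The exons of Ccne2 overlap those of Ints8, a subunit gene of the Integrator complex on the opposite strand, and the strand setting of the counting was not given in the sources used here. Ints8 stood at 29.5 to 47.9 CPM in knockout basal and 17.8 to 19.2 CPM in wild-type basal libraries, so it was high where Ccne2 was low. Its log2 differences were 1.07 with an adjusted p of 0.0632 for knockout against wild type under basal conditions and -1.10 with an adjusted p of 0.0219 for IL-4 in knockout. Reads shared between the genes could not be told apart in the counts. Exons of Ccnd1 overlap those of LTO1 (6.09 to 23.6 CPM, no comparison passed), those of Ccnd3 overlap Bysl (5.41 to 25.3 CPM, none passed), and those of Ccnd2 and Cdkn1a overlap antisense or unclassified genes that have no row in the table.

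Ccne1 (chr7:38097984-38107534, minus strand), the gene of cyclin E1, was the rarest of the 10 transcripts in wild-type basal libraries. It stood at 0.57 and 1.63 CPM in wild-type basal, 1.62 and 3.58 CPM in knockout basal, and 2.62, 4.39 and 4.12 CPM in wild-type IL-4 libraries. Knockout IL-4 replicate 1 stood at 11.7 CPM, and the other two libraries of its group at 2.76 and 2.56 CPM. Every wild-type IL-4 library lay above the wild-type basal ones, but the log2 difference of 1.74 ± 0.76 did not pass (adjusted p of 0.198). With 6 to 115 counts per library, the standard errors of its log2 differences ran up to 0.81 in comparisons of 2 groups, which limits what can be said of it.

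Cdkn2c (chr4:109660876-109667189, minus strand) encodes p18 INK4c, an inhibitor of CDK4 and CDK6, and was the one gene of the 10 that changed with IL-4 in both genotypes. It stood at 7.27 and 9.59 CPM in wild-type basal and 11.1 and 8.86 CPM in knockout basal libraries. After IL-4 it stood at 23.1, 25.4 and 23.5 CPM in wild type and 25.7, 26.6 and 18.4 CPM in knockout. All 6 IL-4 libraries lay above all 4 basal libraries, and the genotypes overlapped in each condition.

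In wild type, Cdkn2c rose 2.84-fold with IL-4, a log2 difference of 1.51 ± 0.29 with an adjusted p of 0.00651. It was the only one of the 10 genes to pass in this comparison, in which 3.26% of all genes tested rose and 2.8% fell. Without wild-type basal replicate 1 the adjusted p was 0.0643. In knockout it rose 2.36-fold, a log2 difference of 1.24 ± 0.29 with an adjusted p of 0.0153, or 0.0668 and 0.169 when knockout basal replicates 1 and 2 were left out in turn. Cdkn2c, Ccne2 and Ccnd2 were the 3 genes of the 10 that passed in knockout, 2 upward and 1 downward, where 4.09% of all genes tested rose and 3.51% fell. The interaction for Cdkn2c was -0.27 ± 0.39 with an adjusted p of 0.812.

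RefSeq (GRCm38.p6) lists start-site windows, from 250 bases before a start to 50 after it, for 6 of the 10 genes, with 9 windows in all, and none was used for Ccnd1, Ccnd2, Ccne2 or Myc. Both windows of Cdkn2c are printed because this gene responded to IL-4 in both genotypes. In each, capitals mark the searched motif that was found, GGGCGG (GC box) in the upstream window and CACGTG (E-box) in the downstream one.
Cdkn2c upstream start, chr4:109666707-109667006, minus strand: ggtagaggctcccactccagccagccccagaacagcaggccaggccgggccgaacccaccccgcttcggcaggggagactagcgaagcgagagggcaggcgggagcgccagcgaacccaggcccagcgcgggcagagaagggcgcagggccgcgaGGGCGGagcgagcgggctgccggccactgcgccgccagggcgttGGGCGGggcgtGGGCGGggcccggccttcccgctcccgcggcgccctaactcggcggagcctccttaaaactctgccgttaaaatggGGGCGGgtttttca
Cdkn2c downstream start, chr4:109665323-109665622, minus strand: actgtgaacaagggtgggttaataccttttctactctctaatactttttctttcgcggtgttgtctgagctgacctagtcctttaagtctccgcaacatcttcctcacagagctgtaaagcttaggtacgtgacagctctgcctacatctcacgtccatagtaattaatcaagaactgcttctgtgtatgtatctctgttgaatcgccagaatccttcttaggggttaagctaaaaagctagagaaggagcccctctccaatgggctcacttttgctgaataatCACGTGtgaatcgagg
The upstream window held 4 GC boxes and was 73.3% G and C, and the downstream window held 1 E-box and was 44% G and C. Among all 32851 windows of 300 bases, 35.7% held a GC box and 7.15% an E-box, read on both strands. Neither the E2F letters TTTCCCGC, TTTGGCGC, TTTCGCGC and TTTGCCGC, found in 2.26% of all windows, nor the STAT6 letters TTCNNNNGAA, found in 6.95%, occurred in any of the 9 windows, which says only that these letters are not in them.

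Cdkn1a (chr17:29090976-29100727, plus strand), the gene of p21 and a known target of p53, was the most abundant inhibitor per kilobase. Its level was 183 and 144 CPM in wild-type basal, 113 and 120 CPM in knockout basal, and 230, 199 and 241 CPM in wild-type IL-4 libraries. Knockout IL-4 replicate 1 stood at 377 CPM, above all other libraries, and replicates 2 and 3 at 168 and 126 CPM. In each genotype the IL-4 libraries lay above the basal ones, by 0.45 ± 0.36 on the log2 scale in wild type (adjusted p of 0.514) and 0.94 ± 0.36 in knockout (adjusted p of 0.137). Neither passed. In knockout the difference was 0.32 (adjusted p of 0.475) without knockout IL-4 replicate 1, the library at 377 CPM. It passed without knockout IL-4 replicate 3 (1.22, adjusted p of 0.0344) and when no filter on low counts was used (adjusted p of 0.00802). Under basal conditions both knockout libraries lay below both wild-type libraries, with a log2 difference of -0.48 ± 0.39 that did not pass (adjusted p of 0.575).

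Cdkn1b (chr6:134920401-134925513, plus strand) encodes p27. Its level ran from 26.0 CPM in wild-type basal replicate 1 to 75.7 CPM in a wild-type IL-4 library. The other wild-type basal library stood at 60.2 CPM, the knockout basal libraries at 53.6 and 48.8 CPM, and the knockout IL-4 libraries between 47.2 and 69.1 CPM. All pairs of groups compared overlapped, and no difference passed. The IL-4 effect in wild type was 0.56 ± 0.32 on the log2 scale with an adjusted p of 0.345.

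E2f1 (chr2:154559407-154569892, minus strand), the founding member of the E2F family, lay between 2.53 and 6.99 CPM in all 10 libraries. Its groups overlapped in each comparison except knockout against wild type under basal conditions, with 6.27 and 4.83 CPM against 4.72 and 3.51 CPM. No difference passed, and that one was 0.43 ± 0.50 on the log2 scale with an adjusted p of 0.726. Myc (chr15:61985391-61990374, plus strand) lay between 24.0 and 50.4 CPM. Its knockout basal libraries, at 44.8 and 50.4 CPM, lay above the wild-type basal libraries, at 40.9 and 25.0 CPM, and the difference of 0.53 ± 0.34 did not pass (adjusted p of 0.462). After IL-4 it stood at 47.4, 34.0 and 29.6 CPM in wild type and at 24.0, 45.7 and 35.7 CPM in knockout. The IL-4 effect on Myc was 0.17 ± 0.31 in wild type and -0.44 ± 0.31 in knockout, and neither passed (adjusted p-values of 0.813 and 0.428).

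**Figure D2:**
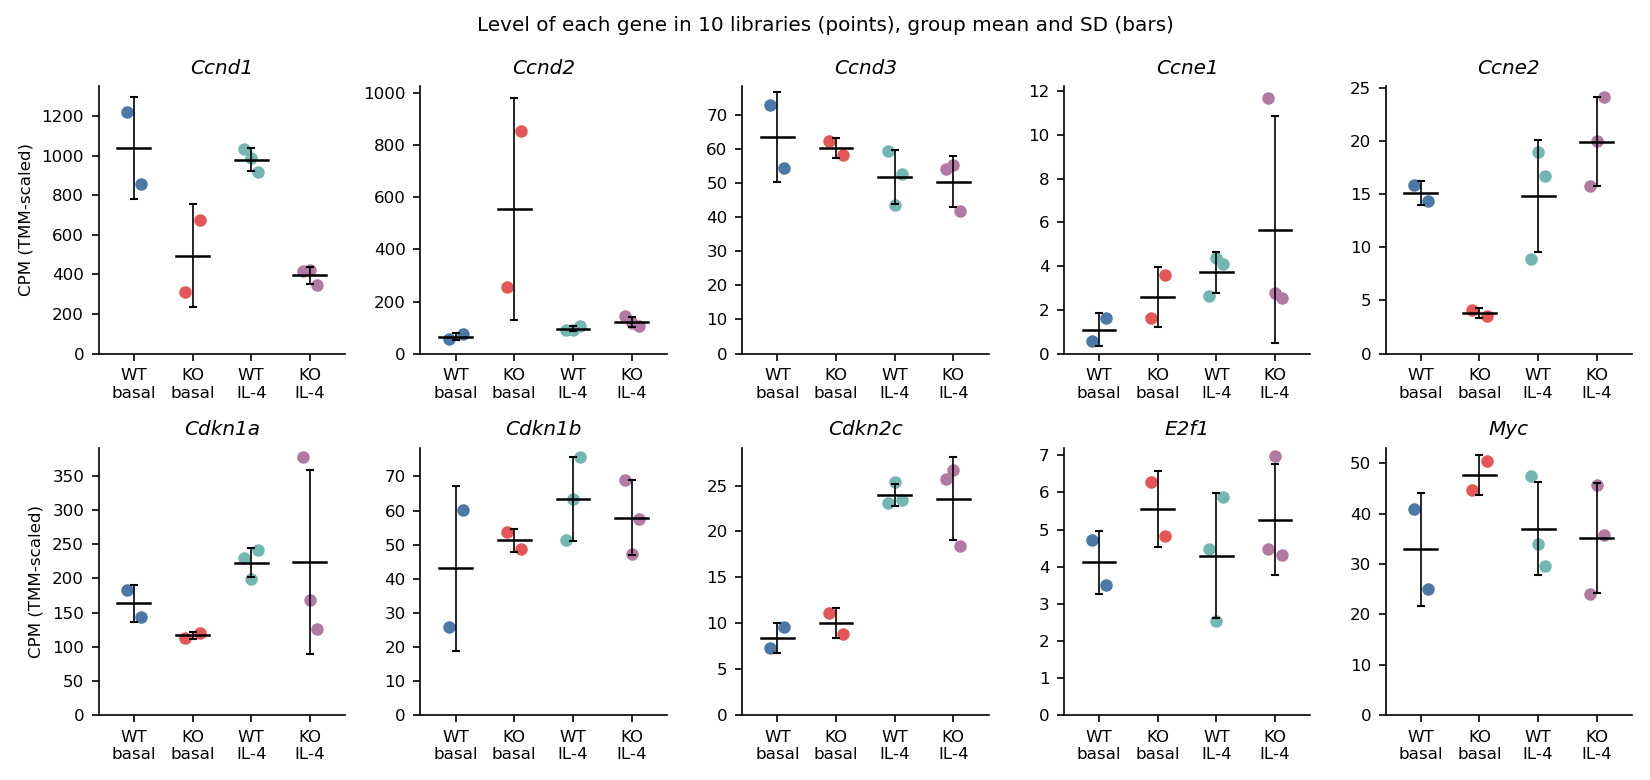
Level of each of the 10 transcripts in CPM on linear axes from 0, with 1 point per library, the group mean as a horizontal bar and the SD as a vertical one. Ccnd1 separates the genotypes, Ccne2 is low in the knockout basal group, Cdkn2c separates IL-4 from basal, and single libraries stand out in Ccnd2 (857 CPM), Ccne1 (11.7 CPM) and Cdkn1a (377 CPM).

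**Figure D3:**
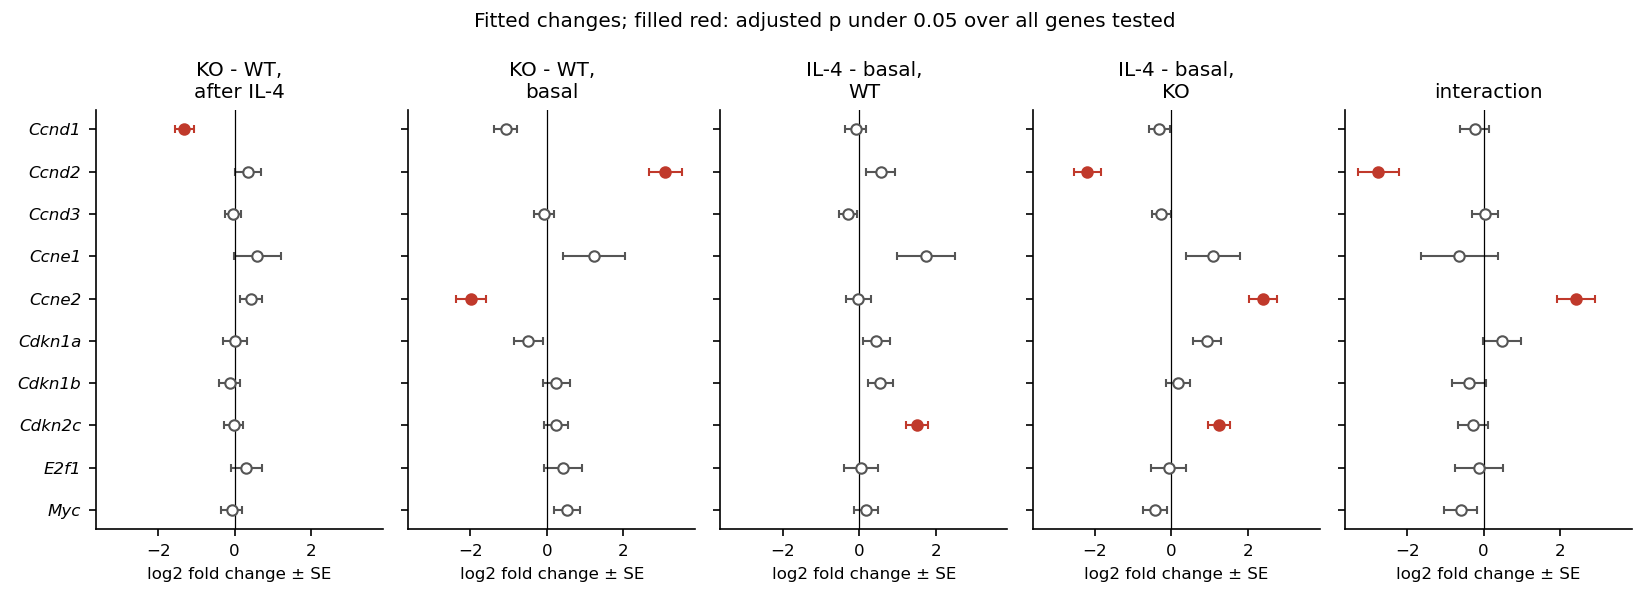
Log2 fold change of each of the 10 genes with its standard error in the 5 comparisons, where a filled red point marks an adjusted p under 0.05 over all genes tested. Filled points are Ccnd1 after IL-4, Ccnd2 and Ccne2 in the basal genotype comparison, in the IL-4 effect in knockout and in the interaction, and Cdkn2c in both IL-4 effects.

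Set in order of level per kilobase of exon, the wild-type basal group ran from Ccnd1 (221 ± 55.1 CPM per kilobase, SD, n = 2) and Cdkn1a (46.0 ± 7.77) through Myc (12.1 ± 4.13), Cdkn1b (9.47 ± 5.32), Ccnd3 (7.25 ± 1.5), Ccnd2 (6.89 ± 1.38), Ccne2 (4.32 ± 0.32), Cdkn2c (3.14 ± 0.61) and E2f1 (1.31 ± 0.27) to Ccne1 (0.41 ± 0.28). Neighbours from Myc to Ccnd2 in this order overlapped between libraries and the other neighbours did not. In knockout basal libraries Ccnd2 came second, at 59.1 ± 45.3 CPM per kilobase (n = 2), and overlapped both Ccnd1 (105 ± 55.3) and Cdkn1a (32.9 ± 1.39). Ccne2 moved down to the ninth place there, at 1.09 ± 0.13 CPM per kilobase, and overlapped Ccne1 (0.98 ± 0.52). After IL-4 in wild type (n = 3), Ccnd1 (208 ± 12.4) and Cdkn1a (62.8 ± 6.15) again led without overlap, and Cdkn2c stood sixth at 8.93 ± 0.46. After IL-4 in knockout (n = 3), Ccnd1 (83.8 ± 9.17) overlapped Cdkn1a (63.0 ± 37.9) because of the 1 high Cdkn1a library.

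The other kinases, activators and inhibitors of the same machinery were 17 tested genes. Between genotypes 0 of them passed edgeR's quasi-likelihood test in either condition, a count to be read beside the 0.353% and 0.474% of all genes tested that were higher and lower after IL-4 and the 2.61% and 1.53% under basal conditions. Here 4 (after IL-4) and 2 (basal) had an unadjusted p under 0.05, beside 1673 and 2057 of the 11614 genes tested. DESeq2 called 0 and 1 of the 17. With IL-4, 2 rose in wild type, of which 1 was left without each of 4 wild-type libraries (both basal, and IL-4 replicates 2 and 3). In knockout 3 rose, of which 0 were left without knockout basal replicate 1 and 1 without each of 5 other libraries. Of all genes tested, 3.26% rose with IL-4 in wild type and 4.09% in knockout, to be read beside the counts of 2 and 3. The median log2 difference was 0.45 and 0.41 in the IL-4 effects against 0.00 over all genes tested. Cdk6, the kinase partner of the D-type cyclins, rose 2.48-fold in wild type (1.31 ± 0.23, adjusted p of 0.00372, or 0.0601 without wild-type basal replicate 2), from 59.6 to 84.0 CPM in basal to 165 to 188 CPM in IL-4 libraries. In knockout Cdk6 rose with IL-4 as well, 1.79-fold (0.84 ± 0.23, adjusted p of 0.0333 by edgeR's quasi-likelihood test). It stood there at 107 to 133 CPM in basal and 195 to 230 CPM in IL-4 libraries. This call was lost with library totals, with only the 2 groups compared and with a replicate block. The interaction for Cdk6, -0.47 ± 0.31, did not pass. Among the 17 pocket proteins and other E2F and DP factors, 0 passed between genotypes after IL-4. There 5 had an unadjusted p under 0.05, DESeq2 called 1, and 3 passed with no filter on low counts. Rb1 came nearest, higher in knockout by 1.06 ± 0.24 (adjusted p of 0.0563 by edgeR's quasi-likelihood test). In the basal genotype comparison 1 of the 17 passed (E2f2). With IL-4, 1 passed in wild type (E2f2, 2.59-fold up, adjusted p of 0.0197) and 1 in knockout (E2f8, 9.54-fold up, adjusted p of 0.0241). The shares of all genes tested given above stand beside these counts too. The wild-type call was lost without either wild-type basal library or wild-type IL-4 replicate 2 or 3 (adjusted p up to 0.118), and the knockout call without either knockout basal library or knockout IL-4 replicate 3 (adjusted p up to 0.212). E2f2 averaged 10.9 CPM in wild-type basal and 29.8 ± 3.35 CPM (SD, n = 2) in knockout basal libraries (2.73-fold, adjusted p of 0.0263 by edgeR's quasi-likelihood test). The basal call of E2f2 was lost without any 1 of the 4 basal libraries, with adjusted p-values up to 0.137.

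E2F factors drive a set of genes at the G1/S transition, among them those of nucleotide synthesis and replication origin licensing. With IL-4 in knockout, 8 of the 22 tested rose, 0 fell and 14 did not pass, with a median log2 difference of 1.27, beside 4.09% of all genes tested that rose. With IL-4 in wild type 0 passed (median of 0.34), and DESeq2 called 2. There 7 had an unadjusted p under 0.05, beside 2475 of the 11614 genes tested. The count in knockout was 3 without knockout basal replicate 1 and 5 without knockout IL-4 replicate 3. Ccna2, cyclin A2, stood at 0.54 to 2.06 CPM in knockout basal and 12.7 to 16.8 CPM in knockout IL-4 libraries (10.8-fold, 3.43 ± 0.57, adjusted p of 0.00168). Tyms, thymidylate synthase, stood at 4.97 to 5.90 CPM and 19.0 to 22.3 CPM (3.79-fold, 1.92 ± 0.31, adjusted p of 0.00117). Between genotypes 0 of the 22 passed in either condition, with medians of -0.66 under basal conditions and 0.34 after IL-4. There, 8 (basal) and 5 (after IL-4) had an unadjusted p under 0.05, beside 2057 and 1673 of all genes tested, and DESeq2 called 0 and 1 of the 22. In the interaction, which tests each gene's difference between the IL-4 effects, 9 of the 22 had an unadjusted p under 0.05. Over all genes tested 1778 had one. DESeq2 called 2 of the 22, and 1 passed edgeR's quasi-likelihood test (Pola1, positive), beside 1.02% of all genes tested. That count was 5 with no filter on low counts, 3 without knockout basal replicate 2, 2 without knockout IL-4 replicate 1, and 0 when knockout basal replicate 1, wild-type basal replicate 2 or wild-type IL-4 replicate 1 or 2 was left out.

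Mitosis genes, the markers of dividing cells, had the largest list medians of the 7 lists in the IL-4 effects. Of 18 tested, 7 rose with IL-4 in wild type (median log2 difference of 1.65) and 17 rose in knockout (median of 3.41). In either genotype 0 fell. Over all genes tested, 3.26% rose in wild type and 4.09% in knockout. In wild type the count was 3 when basal replicate 2 was left out and 4 when IL-4 replicate 2 or 3 was, and DESeq2 gave 11. In knockout it was 15 to 17 in the fits that left out 1 library. Cenpe, a kinetochore motor, stood at 23.5 and 24.6 CPM in wild-type basal, 11.5 and 17.0 CPM in knockout basal, 84.9, 96.1 and 75.0 CPM in wild-type IL-4, and 170, 98.1 and 182 CPM in knockout IL-4 libraries. Summed, the 18 genes reached 192 to 221 CPM in wild-type basal, 72.1 to 147 CPM in knockout basal, 506 to 568 CPM in wild-type IL-4 and 855 to 1494 CPM in knockout IL-4 libraries, with no overlap between any of the groups. The knockout basal group was thus the lowest both in these sums and in Ccne2, and the knockout IL-4 group the highest in the sums. Gene by gene, between genotypes, 2 of 18 were lower in knockout under basal conditions and 1 of 18 was higher after IL-4. Of all genes tested, 1.53% were lower under basal conditions and 0.353% higher after IL-4. The basal count was 0 without knockout basal replicate 1 or wild-type basal replicate 2. It was 6 when knockout basal replicate 2 was left out. The count after IL-4 was 3 without knockout IL-4 replicate 2 and 0 without any 1 wild-type IL-4 library. List medians between genotypes were -0.89 under basal conditions and 0.62 after IL-4, where all 18 were positive. An unadjusted p under 0.05 was found for 7 and 9 of the 18, beside 2057 and 1673 of the 11614 genes tested. In the interaction 5 of 18 passed, all positive, beside 1.02% of all genes tested. This count was not stable. It was 3 without knockout IL-4 replicate 3 or wild-type IL-4 replicate 2, 2 without wild-type IL-4 replicate 1 or 3, and 9 with no filter on low counts. It also moved when any basal library was left out, which leaves 1 library in that group.

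MYC acts with a network of partners and antagonists. Of 10 of them tested (Mycl and Mycn did not pass the filter), 1 passed, Mlxip in the basal genotype comparison (1.23 ± 0.31, adjusted p of 0.0361), and it was called in only 4 of 10 fits that left out 1 library. Among 24 genes that MYC is known to drive, 1 passed in the genotype comparison after IL-4, 0 under basal conditions, 2 with IL-4 in wild type, and 4 with IL-4 in knockout, 1 of them upward and 3 downward. Beside them stand 0.474% of all genes tested that were lower in knockout after IL-4 and 3.26% that rose with IL-4 in wild type. With IL-4 in knockout 4.09% of all genes tested rose and 3.51% fell. In the basal genotype comparison, that of the Mlxip call as well, 2.61% were higher in knockout and 1.53% lower. Between genotypes, 8 of the 24 under basal conditions and 12 after IL-4 had an unadjusted p under 0.05. Over the 11614 genes tested, 2057 and 1673 had one. DESeq2 called 3 under basal conditions and 1 after IL-4. The 2 calls in wild type, both upward, fell to 0 when basal replicate 1 or IL-4 replicate 3 of that genotype was left out. They fell to 1 when its basal replicate 2 or IL-4 replicate 1 was. In knockout, the upward call was lost without knockout basal replicate 1. Of the 3 downward calls, 1 was left without that library and 0 when knockout basal replicate 2 or knockout IL-4 replicate 3 was left out. Srm, which makes the polyamine spermidine, stood at 50.7, 33.9 and 53.8 CPM in wild-type IL-4 and 11.2, 15.8 and 11.9 CPM in knockout IL-4 libraries. It was 3.55-fold lower in knockout (-1.83 ± 0.26, adjusted p of 0.00368) and passed in all 10 fits that left out 1 library, while Myc itself gave -0.07 ± 0.28 in this comparison. The median of the 24 genes was -0.42 in knockout against wild type after IL-4, beside 0.02 over all genes tested. Of 17 tested p53 targets other than Cdkn1a, 0 passed in the genotype comparisons or with IL-4 in wild type, and DESeq2 called 0. There 2 to 5 had an unadjusted p under 0.05, beside 1673 to 2475 of all genes tested. With IL-4 in knockout 2 rose (0 without knockout basal replicate 2, and 1 without each of 5 other libraries), of which Pmaip1, a pro-apoptotic gene, rose 5.40-fold (2.43 ± 0.44, adjusted p of 0.00290, or 0.0585 without knockout basal replicate 2).

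**Figure D4:**
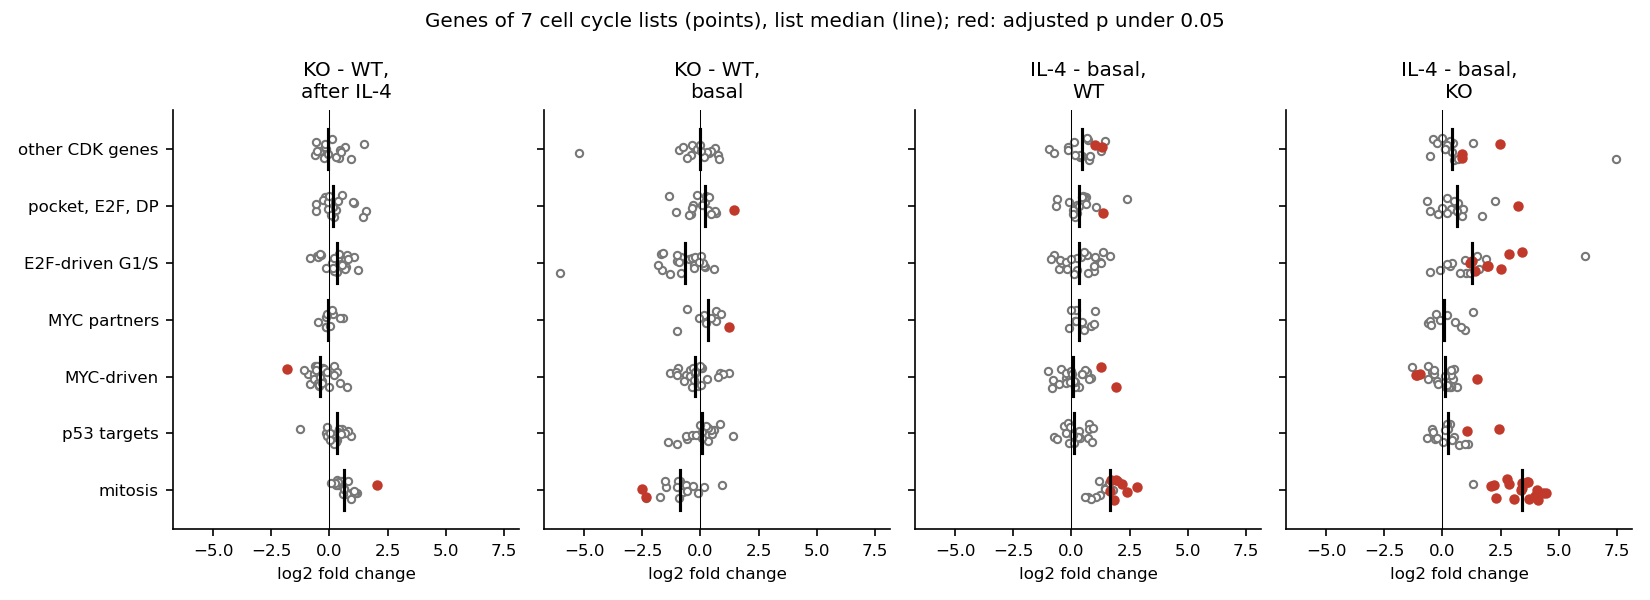
Log2 fold change of each tested gene (points) of 7 lists in 4 comparisons, with the list median as a black line and genes at an adjusted p under 0.05 in red. The mitosis list shifts furthest, to a median of 3.41 with IL-4 in knockout, and the points beyond 5 on either side are Cdc25c and Orc1, whose values did not pass.

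For each of the 4 genes that passed somewhere, the 3 tested genes with the most similar pattern over the 10 libraries were taken, by Pearson's r of log2(CPM + 0.5) among the 7503 genes that averaged 10 CPM or more. The libraries share their groups, so r largely reflects group means, and it is given as a description. Nearest to Ccnd1 were Erh (r = 0.93), Serpinb10 (0.92) and Slc35b1 (0.91). Nearest to Ccnd2 were Prkar2b (0.99), Pou2f2 (0.96) and Pou2af1 (0.96), of which Pou2f2 encodes Oct-2 and Pou2af1 its B cell coactivator. Nearest to Ccne2 were Rnd3 (0.97), Fxr1 (0.97) and Scarb1 (0.94), none of them a gene of the lists above. Nearest to Cdkn2c were Fos (0.98), Cited2 (0.98) and Adgrg6 (0.98), the first an immediate early gene.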

How the data were processed

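Polyadenylated RNA of 10 libraries was used. The deposited values were whole-number read counts per gene and library, which the authors made with STAR and HTSeq on mm10, per the submitters' processing notes; versions, gene annotation and strand setting were not given in the sources used here. No normalization had been applied, and the counts were used as deposited. Of 22165 identifiers, 420 came without a symbol and 7409 were at 0 throughout. Gene models for coordinates and exonic lengths came from GENCODE M21 on mm10, matched by identifier.

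R 4.3.3 with edgeR 4.0.16 was used for TMM scaling and for the filter on low counts (filterByExpr at a count of 10 and a total of 15). A robust quasi-likelihood model with 4 group means over all 10 libraries had 6 residual degrees of freedom and the common biological variation between libraries was 28.4%. The test is two-sided. It was tried on simulated counts with changes placed in the knockout IL-4 libraries only. Only knockout against wild type after IL-4 was scored there, so the simulation says nothing of comparisons with basal groups. The alternatives were DESeq2 1.42.0, DESeq2 size factors, library totals, no filter, a fit of only the 2 groups compared, a replicate block and leaving out each library. Figures were drawn with matplotlib 3.10.9.

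All 10 genes are named in every comparison. From each pathway list, up to 4 passing genes with the smallest p are named, or a count is given. Rb1, Cdc25c and Orc1, which did not pass, are named as well. From each marker list the summed CPM and at most 2 genes of highest mean are given. The 3 sorting genes and genes whose exons overlap a gene of the set were chosen after their values were seen. The genes and lists were chosen with earlier results of these data known. A library left alone in its group was given the spread of the other groups. The level of the targeted gene is not reported here.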

Additional observations from a re-analysis of the deposited data

Results flagged for a closer look

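The response to IL-4 differed between genotypes, by the interaction term of edgeR's quasi-likelihood test adjusted over all genes tested, for Ccnd2 (-2.75 on the log2 scale) and Ccne2 (2.42), the values of which stand with their libraries in the report.

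Among the genes of the pathway lists, it also differed for others, of which 9 are named here, up to 4 per list by the smallest p. In the mitosis list 5 of 18 tested genes passed, so not all of them are named. Over all genes tested, 1.02% had a positive and 1.78% a negative interaction that passed. In the E2F-driven list, Pola1, the catalytic subunit of DNA polymerase alpha, had an interaction of 2.13 and passed in 5 of the 10 fits that left out 1 library. In the MYC-driven list, Srm had -1.86 and passed in 6 of them, Npm1, a nucleolar chaperone, had 2.05 and passed in 6, and Bop1, a ribosome assembly factor, had -1.76 and passed in 2. Among p53 targets, Pmaip1 had 2.31 and passed in 2. In the mitosis list, Cdk1 had 2.83 and Nusap1 3.45, each passing in 8, Mki67 had 2.79 and passed in 5, and Top2a had 2.05 and passed in 3. Over these 9 genes the highest adjusted p in such a fit was 0.197, for Pmaip1 without knockout basal replicate 2.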

How the results depend on the processing

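Numbers of the 10 genes called were 1, 2, 1, 3 and 2 in knockout against wild type after IL-4, the same under basal conditions, IL-4 in wild type, IL-4 in knockout and the interaction. In the fits without 1 library they ran from 0 to 1, 1 to 2, 0 to 1, 1 to 4 and 1 to 2. Of 790 values of single genes under the alternatives, 12 lost and 5 gained their call and no called value changed sign. Same-numbered libraries did not deviate together over the genes tested (correlations from -0.11 to 0.062). With 2 or 3 libraries per group this check is weak and cannot exclude a pairing that affects some genes. With a replicate block the numbers of the 10 genes called were again 1, 2, 1, 3 and 2. The count over all genes with IL-4 in knockout went from 883 to 554 with it. With the block, calls among MYC-driven genes with IL-4 in wild type went from 2 to 0, and in knockout those of the kinase list from 3 to 0 and of E2F-driven genes from 8 to 5. Over all genes, the counts of 96, 481, 704, 883 and 326 became 385, 841, 1144 and 594 with DESeq2 (within 1.5 times for IL-4 in knockout) and 505, 1034, 1209, 1423 and 819 with no filter, and without 1 library they ran from 21 to 129, 208 to 550, 302 to 764, 327 to 931 and 182 to 397. Scaling by library totals moved the median of all genes to 0.13 in the basal genotype comparison, -0.10 for IL-4 in knockout and -0.17 in the interaction. The cause of these shifts was not tested. A fit of only the 2 groups compared was not run for the interaction, which needs all 4. With 2 basal libraries per genotype, each basal value rests on a spread largely set by the other groups, and the low counts of Ccne1 and E2f1 limit what could be detected in them.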
